A study of Saccharomyces cerevisiae with 24 samples.

Results

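The genes that encode RNA polymerases I and III of Saccharomyces cerevisiae, with the factors that bring these enzymes to their templates, were followed after galactose was added to 2 strains. The group holds 41 genes, chosen by name from the complexes they belong to, and all 41 were measured among 5656 genes on 24 Affymetrix YG_S98 arrays. In YSS89 (UASGAL1-IFH1-13myc-TRP1, with the upstream sequence of IFH1 replaced by a HIS3-marked GAL1 upstream activating sequence) galactose switches on IFH1, which encodes a coactivator of ribosomal protein genes. In the control, YSS37 (IFH1-13myc-TRP1, called wild-type by the labels), the same tagged gene has its own upstream sequence. Both strains are MATa and were grown to log phase in YPLG medium before galactose was added to 2%. YSS89 was sampled at 0, 20, 30, 40 and 60 min and YSS37 at 0, 30 and 60 min, with 3 biological replicates (a, b and c) in each of the 8 groups. The labels give the times without a unit, and minutes are assumed. All groups carry the tag, and each received galactose after time 0, so effects of galactose and of elapsed time cannot be told apart. The arrays give levels relative to the rest of the RNA on the array, so a change in total RNA per cell was not measured.

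RNA polymerase I makes one product, the large precursor of ribosomal RNA, and RNA polymerase III makes 5S ribosomal RNA, transfer RNA and other short RNAs. Each is a large complex with subunits of its own, a pair that the 2 enzymes share (RPC40 and RPC19) and a set that they share with RNA polymerase II as well (RPB5, RPB8, RPB10, RPO26 and RPC10). Polymerase I is recruited by RRN3, the core factor (RRN6, RRN7 and RRN11) and the upstream activation factor, or UAF (RRN5, RRN9, RRN10 and UAF30). Polymerase III is recruited by TFIIIC (TFC1, TFC3, TFC4, TFC6, TFC7 and TFC8) and TFIIIB (BRF1 and BDP1, with the TATA-binding protein), and MAF1 represses it. In growing yeast these 2 enzymes make most of the RNA in the cell, and their output follows nutrient supply.

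Several features of the arrays bear on the comparisons. The arrays were hybridized in 4 rounds. Round 1 held all YSS37 arrays but 1, round 2 held the last YSS37 array (60 min, replicate c) with the first YSS89 arrays, round 3 held later YSS89 arrays, and round 4 was made up of just 2 arrays, b and c of the YSS89 time 0 group. In round 4 the control probe sets for 25S ribosomal RNA averaged 313 and 90.9, where the remaining 22 arrays gave 560 to 1056. The chip lot recorded for all 9 YSS37 arrays was recorded for no YSS89 array, 2 of which had no lot recorded. It differs by 1 digit from the lot of 5 YSS89 arrays, which may be a typing error, so whether the strains were on different lots is not known. The summed intensity of 7 a-cell genes was 769 to 1705 in YSS89 and 751 to 1047 in YSS37, and that of 4 alpha-cell genes was 32 to 55.8 in YSS89 and 30.9 to 47.6 in YSS37, so both strains carried messages of the labelled mating type. IFH1 itself rose in YSS89 by 4.62 at 60 min (adjusted p = 2.11e-14) and in YSS37 by 0.73 (adjusted p = 0.00149).

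Intensities below are the deposited values of the brightest probe set of each gene, with ± the standard deviation of 3 arrays. Changes are differences of quantile normalized log2 values, with ± the standard error of the limma fit. A gene is said to have risen, fallen or been called when its adjusted p, taken over all 5656 genes, was under 0.05.

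**Figure D1:**
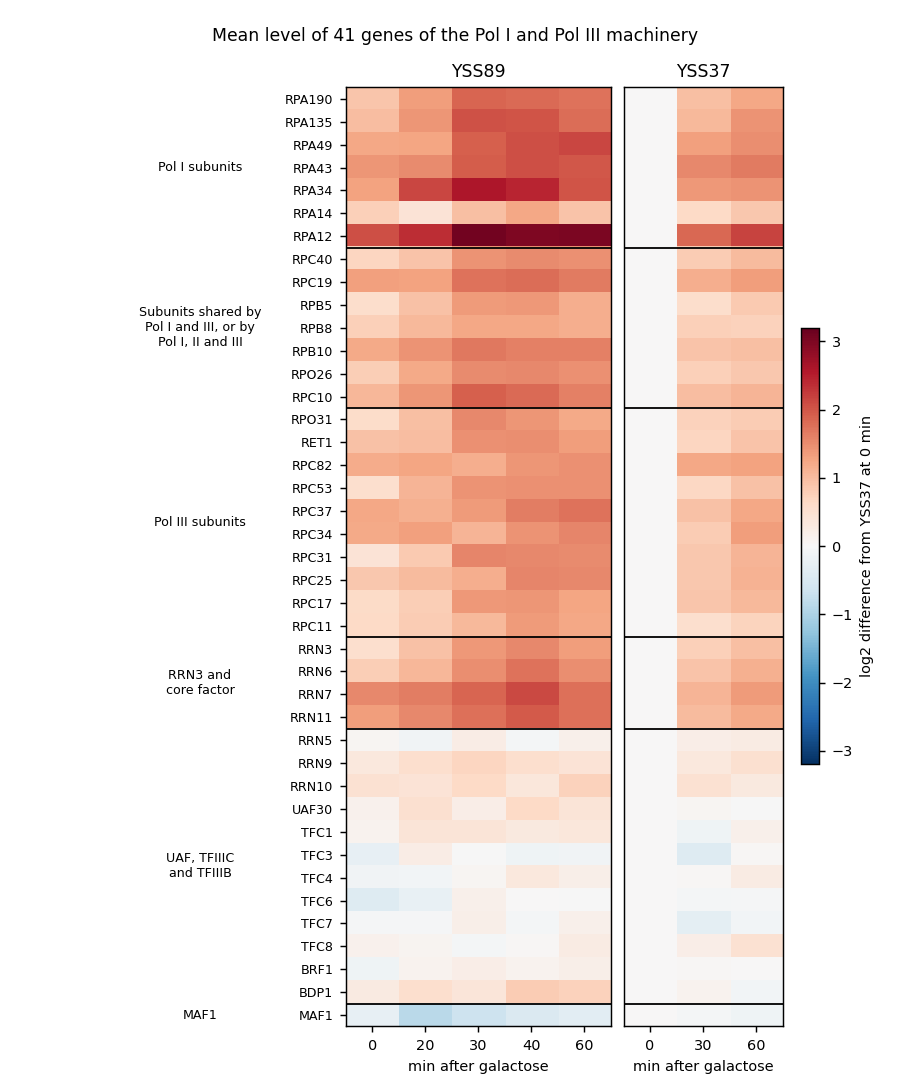
Mean log2 level of the 41 genes (rows, by complex) in the 8 strain-by-time groups (columns, min after galactose), as the difference from YSS37 at time 0. The rows of polymerase subunits, RRN3 and the core factor were above 0 in all other groups. The MAF1 row was at its lowest at 20 min in YSS89.

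In YSS89 the genes for the polymerases themselves rose after galactose, most of them after 20 min. At 20 min, when IFH1 had already risen by 5.77, 4 of the 41 genes had risen and 2 had fallen, beside 7.6% and 10.4% of all genes, and the median difference was 0.21. At 30 min 24 were higher and 0 lower (22.4% and 23.6% of all genes), with a median of 0.44. At 40 min 28 were higher and 0 lower (23.9% and 21.5%), with a median of 0.56, and at 60 min 23 and 0 (23.9% and 19.8%), with a median of 0.43 (0.08 over all genes). Of the 24 subunit genes 19, 22 and 20 rose at 30, 40 and 60 min, by medians of 0.70, 0.75 and 0.62, and 18 were called at all 3 of these times.

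The 4 genes called higher at 20 min in YSS89 were RPA34, RPC53, RPO26 and RPB5. RPA34 encodes a polymerase I subunit that works as a pair with RPA49. Its intensities in YSS89 were 152.1, 175.8 and 180.8 at time 0, 287.2, 250.9 and 306.6 at 20 min, 328.7, 396.5 and 367.4 at 30 min, 311.4, 357.6 and 347.7 at 40 min and 191.9, 275.8 and 326.4 at 60 min. All later arrays exceeded those at time 0, and the change was 0.86 ± 0.19 (adjusted p = 0.00399) at 20 min, 1.30 at 30 min, the largest of the 41 at that time, and 0.74 at 60 min. RPC53 encodes a polymerase III subunit that acts, paired with RPC37, in initiation and termination. Its intensities were 71.5, 81.3 and 60.2 at time 0, 95.8, 89.1 and 100.5 at 20 min, 103.6, 123.4 and 119.6 at 30 min, 119.1, 122 and 127.1 at 40 min and 124.7, 125.8 and 121 at 60 min. RPC53 too lay above time 0 on all later arrays, by 0.57 ± 0.13 (adjusted p = 0.00498) at 20 min and 0.93 at 60 min. RPO26 and RPB5, shared by all 3 polymerases, rose by 0.41 and 0.39 at 20 min (adjusted p = 0.0432 and 0.0264).

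The 2 genes called lower at 20 min in YSS89 were MAF1 and RPA14. MAF1 intensities were 56.8, 32.4 and 53.8 at time 0, 25.3, 29.2 and 25 at 20 min, 41.5, 26.4 and 26.5 at 30 min, 34, 35.3 and 42.4 at 40 min and 33.1, 41.3 and 48.4 at 60 min. In normalized values the groups at 0 and 20 min overlapped, and the difference was -0.60 ± 0.19 (adjusted p = 0.0326). At 30, 40 and 60 min MAF1 was not called. RPA14, which encodes the partner of RPA43 in the polymerase I stalk, had intensities of 197.5, 213.9 and 232.5 at time 0, 153.2, 171.5 and 149.3 at 20 min, 218.2, 198.1 and 216.9 at 30 min, 280.5, 255.9 and 257.1 at 40 min and 248.2, 212.3 and 196.6 at 60 min. All arrays at 20 min lay below time 0 (-0.32 ± 0.11, adjusted p = 0.0419), and all at 40 min lay above it (0.47, adjusted p = 0.00144).

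The calls at 20 min in YSS89 were few, and some of them depended on single arrays. RPA34 and RPC53 kept their calls when any 1 array was left out. The ratio of 3' to 5' probe sets of ACT1, which reads RNA integrity and labelling, was 1.55 ± 0.0326 at 20 min, above the other YSS89 groups (1.27 ± 0.10 at time 0), and its part in the results was not tested. The 6 calls at 20 min became 2 without replicate a at 20 min and 3 without replicate c at 20 min or replicate a or b at time 0. With the hybridization round as a block the count was 1. Without the 2 arrays of round 4, which leaves 1 array at time 0, RPA14 and RPC53 differed by -0.19 and 0.52. Within round 2 (1 array at time 0, 2 at 20 min) RPA34, RPC53, MAF1 and RPA14 differed by 0.96, 0.485, -0.88 and -0.15. MAF1 lost its call under 7 of these and other settings, with differences of -0.44 to -0.91. RPA14 lost its call under 10, with differences of -0.14 to -0.32.

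**Figure D2:**
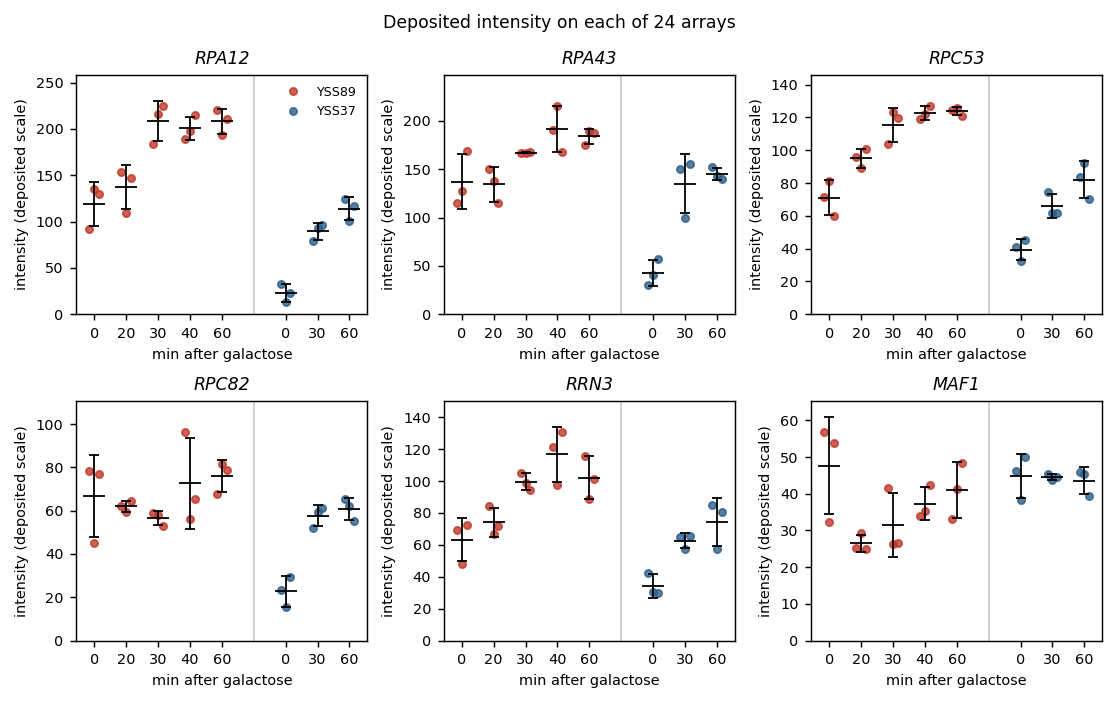
Deposited intensity of 6 genes on each of the 24 arrays by min after galactose (points, replicates a, b and c from left to right; bars, mean and standard deviation of 3), with YSS89 left of the grey line and YSS37 right of it. RPA12, RPC53 and RRN3 were higher at 30 to 60 min than at time 0 in both strains, RPC82 was so in YSS37, and MAF1 dipped at 20 and 30 min in YSS89.

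From 30 min the largest changes in YSS89 were in subunits of both enzymes. RPC31 encodes one of a trio of polymerase III subunits needed for initiation, with RPC82 and RPC34. Its intensities were 43.6, 45.9 and 53.8 at time 0, 65.9, 46.7 and 60.4 at 20 min, 92.9, 89.2 and 95.7 at 30 min, 93.6, 86.7 and 106.5 at 40 min and 91.5, 100.9 and 91 at 60 min. From 30 min its arrays lay above those at time 0 and stayed level, and its change at 60 min was 1.07 ± 0.16 (adjusted p = 2.42e-05), the largest of the 41 there. RPA12, which encodes the small polymerase I subunit that acts in RNA cleavage and termination, followed with 92, 134.9 and 130 at time 0, 153.7, 109.7 and 147.3 at 20 min, 183.7, 215.7 and 224.9 at 30 min, 189.5, 197.5 and 214.5 at 40 min and 220.8, 193.9 and 210.2 at 60 min. The change of RPA12 was 0.94 ± 0.22 (adjusted p = 0.00181) at 60 min, and the step from 20 to 30 min was 0.72 (adjusted p = 0.0253).

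That step between 20 and 30 min was seen in 11 of the 41 genes, all higher at 30 min (9% of all genes), 4 of them polymerase I subunits. The count was 3 without replicate b at 20 min and 7 without replicate b or c at 30 min. Within round 2 (2 arrays at 20 min, 1 at 30 min) the step was 0.59 for RPA12 and 0.74 for RPC31. Within round 3 (1 array at 20 min, 2 at 30 min) it was 0.69 and 0.65. Between 30 and 60 min 0 of the 41 were called (7.64% of all genes), while 3 had an unadjusted p under 0.05 on the higher and 1 on the lower side. The 24 subunit genes had their highest mean at 30 min in 9 cases, at 40 min in 10 and at 60 min in 5.

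RPC82 and RPC34 were called at none of the 4 later times in YSS89, and RPC37 and RPC25 not before 40 min. These 4 polymerase III genes, and RPC19 below, are described here because their values stood out, so they were chosen after those values were seen. RPC82 intensities in YSS89 were 78.4, 45 and 76.9 at time 0, 62.1, 59.3 and 64.6 at 20 min, 58.9, 58 and 52.8 at 30 min, 96.3, 56.3 and 65.4 at 40 min and 67.7, 81.4 and 78.9 at 60 min. Every later group overlapped time 0, and the difference was -0.04 ± 0.22 at 30 min and 0.29 at 60 min. RPC34 intensities were 33.9, 46.2 and 34.8 at time 0, 35.9, 31 and 42.6 at 20 min, 27.9, 30.6 and 33.5 at 30 min, 45.7, 37.9 and 40.9 at 40 min and 45.1, 49 and 43.3 at 60 min, with a difference of 0.36 at 60 min (adjusted p = 0.191). RPC31, the third member of the RPC82 and RPC34 trio, had the rise given above. RPC37 rose in YSS89 by 0.40 at 40 min and 0.49 at 60 min, against 0.92 and 0.93 for its partner RPC53.

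Among the factors for polymerase I in YSS89, RRN3 and RRN6 rose at 30, 40 and 60 min and RRN7 and RRN11 at 40 min alone. RRN3, whose product bridges the polymerase and the core factor, had 69.2, 47.8 and 72.5 at time 0, 84.2, 66.5 and 71.8 at 20 min, 105.3, 98.9 and 94.6 at 30 min, 121.6, 97.7 and 130.7 at 40 min and 115.8, 88.9 and 101.6 at 60 min. Its arrays from 30 min on lay above time 0, and it rose by 0.86, 1.02 and 0.81 ± 0.18 at 30, 40 and 60 min (adjusted p = 0.00109 at 60 min). RRN6 rose by 0.70, 0.96 and 0.72. RRN7 had 23.6, 30.4 and 40.4 at time 0, 34.2, 20.3 and 37.6 at 20 min, 32.5, 32.3 and 40.1 at 30 min, 42.3, 43.5 and 42.8 at 40 min and 31.5, 33.9 and 38 at 60 min. The RRN7 arrays at 40 min lay above time 0 and those at the other times overlapped it. Its change at 40 min was 0.57 (adjusted p = 0.044), a call that 8 other settings removed, and that of RRN11 was 0.62.

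Of the 12 genes of UAF, TFIIIC and TFIIIB 3 rose in YSS89 at 30 min, 2 at 40 min and 1 at 60 min, beside 22.4%, 23.9% and 23.9% of all genes, and none fell. At 30 min these were TFC6 (0.58, adjusted p = 0.0189), BRF1 (0.37, adjusted p = 0.0196), whose product recruits polymerase III, and TFC1 (0.31, adjusted p = 0.0268). At 40 min they were BDP1 (0.53) and TFC4 (0.45), and at 60 min BRF1 (0.33, adjusted p = 0.0347). The medians of the 12 were 0.19, 0.20 and 0.24 at 30, 40 and 60 min. Of the 7 subunits of polymerase II alone 4 rose in YSS89 at 60 min (23.9% of all genes), with a median of 0.42. Of 18 general factors for polymerase II, SPT15 included, 7 rose, with a median of 0.31. RPO21, the largest polymerase II subunit, rose by 0.52 and RPB11 by 0.51, TFB1 of TFIIH by 0.57 and SUA7, which encodes TFIIB, by 0.54. Of the 13 genes for transfer RNA processing and transport 8 rose at 60 min, among them POP5 (1.11) and POP8 (0.79) of ribonuclease P, LHP1 (0.91), the yeast La protein that binds new polymerase III transcripts, and LOS1 (0.55), which encodes an exporter of transfer RNA. Of the 11 upstream regulators 7 rose, the most TOD6 (0.97), which encodes a repressor of ribosome synthesis genes, and CKA1 (0.74), which encodes a catalytic subunit of casein kinase 2. Of 9 further factors of ribosomal, 5S or transfer RNA transcription, with SPT15 counted again, 4 rose and 1 fell (23.9% and 19.8% of all genes). FOB1, which encodes the replication fork block protein of ribosomal DNA, rose by 1.05, REB1, a factor that binds ribosomal DNA among other sites, by 1.0, TOP1, encoding topoisomerase I, by 0.62 and SPT15, encoding the TATA-binding protein used by all 3 polymerases, by 0.44. NHP6B, which encodes a small chromatin protein, fell by 0.92.

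In the control strain all genes for the polymerase subunits rose after galactose. At 30 min 29 of the 41 genes had risen and 0 had fallen relative to time 0, where 14.4% of all genes were called higher and 12.4% lower, and the median change was 0.77. At 60 min 30 were higher and 0 lower, against 21.1% and 20.5% of all genes, with a median change of 0.93 (0.01 over all genes). All 24 subunit genes rose at both times, by a median of 0.88 at 30 min and 1.08 at 60 min, and at 60 min their changes ran from 0.72 to 2.15. The 3 arrays at 60 min all lay above the 3 at time 0 for each of the 24, as they did for 23.8% of all genes.

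The 7 genes of polymerase I alone had the highest median of the subunit classes in YSS37, 1.45 at 60 min. RPA12 intensities in YSS37 were 32.9, 13.5 and 23.4 at time 0, 78.9, 92.9 and 96.2 at 30 min and 124, 100.2 and 117.1 at 60 min (replicates a, b and c). Both later groups lay wholly above time 0, and the change at 60 min was 2.15 ± 0.22 (adjusted p = 2.93e-07), the largest of the 41. RPA43, which encodes a subunit of the stalk that contacts RRN3, had intensities of 30.3, 40.2 and 56.9 at time 0, 150.7, 99.8 and 155.1 at 30 min and 152.2, 143.2 and 139.7 at 60 min. Its change at 60 min was 1.65 ± 0.17 (adjusted p = 3.98e-07), and it had already risen by 1.55 at 30 min. RPA14, its partner in the stalk, rose by 0.86 at 60 min, the smallest of the 7 changes. The largest subunit, RPA190, rose by 1.24, the second largest, RPA135, by 1.43, and the paired subunits RPA49 and RPA34 by 1.49 and 1.45.

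The 10 genes of polymerase III alone rose by 0.72 to 1.33 at 60 min in YSS37, with a median of 1.05. RPO31 and RET1, which encode the 2 largest subunits, rose by 0.81 and 0.92. The trio RPC82, RPC34 and RPC31 rose by 1.28, 1.33 and 1.08. The pair RPC37 and RPC53 rose by 1.24 and 0.93, and RPC25 and RPC17 of the stalk by 1.10 and 1.03. RPC11, which encodes a subunit for RNA cleavage, rose by 0.72. The shared pair RPC40 and RPC19 rose by 1.01 and 1.34, and the 5 subunits shared with polymerase II by 0.74 to 1.08. Of the 7 subunits found in polymerase II alone 1 rose, RPB9 (0.81 ± 0.16, adjusted p = 0.00051), and the median of the 7 was 0.11.

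Most of this change in YSS37 was in place at 30 min. The change of the 24 subunit genes at 30 min was a median of 83.3% of that at 60 min (61.8% to 103.5%), and 23 of them had their highest mean at 60 min. Between 30 and 60 min 0 of the 41 genes were called by limma, the one tool run, against 2.9% of all genes, and 7 had an unadjusted p under 0.05, all 7 higher at 60 min. The largest of these 7 differences was that of RPC34 (0.51, adjusted p = 0.252).

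Among the factors for polymerase I in YSS37, RRN3 and the 3 genes of the core factor rose at both times. RRN3 had intensities of 42.6, 30.2 and 29.6 at time 0, 65.1, 57.1 and 65.4 at 30 min and 85.1, 57.2 and 80.9 at 60 min. All arrays at 30 and 60 min exceeded those at time 0, and the change at 60 min was 0.97 ± 0.18 (adjusted p = 0.00021). RRN6, RRN7 and RRN11 rose by 1.13, 1.35 and 1.21. RRN11 was among the dimmest 25% of genes, so the pseudocount weighs on its change.

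Of the 12 genes of UAF, TFIIIC and TFIIIB, 2 rose in YSS37 at 60 min and none fell, beside 21.1% and 20.5% of all genes, with a median change of 0.10. The 2 were RRN9 of UAF (0.50, adjusted p = 0.0124) and TFC8 of TFIIIC (0.50, adjusted p = 0.0464). At 30 min 1 of the 12 was called, RRN10 of UAF (0.48, adjusted p = 0.0377), where 14.4% of all genes were called higher. BRF1 had 59.2, 56.8 and 59.8 at time 0, 67.5, 57.7 and 60.2 at 30 min and 63.1, 75.9 and 47.7 at 60 min, with a change at 60 min of 0.00 ± 0.12 (adjusted p = 0.992). MAF1 had 46.2, 38.3 and 49.9 at time 0, 45.3, 43.7 and 44.7 at 30 min and 46, 45.3 and 39.4 at 60 min. The MAF1 groups overlapped, and the difference at 60 min was -0.14 ± 0.19 (adjusted p = 0.591). Of 18 general factors for polymerase II, 1 rose and 1 fell at 60 min. The riser was SPT15 (0.63, adjusted p = 0.00138) and the other was TFB3 of TFIIH (-0.45, adjusted p = 0.0184).

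The genes next to polymerase III in the path to mature transfer RNA also rose in the control strain. Of 13 genes for transfer RNA processing and transport 10 rose and 0 fell at 60 min (21.1% and 20.5% of all genes), with a median of 0.76. The largest changes were those of POP3 (1.10), POP8 (0.98) and RPP1 (0.89), which encode subunits of ribonuclease P and its relative RNase MRP, and of LHP1 (0.96). Of 9 further factors of ribosomal, 5S or transfer RNA transcription 3 rose, SPT15 again among them, and 1 fell, against the same shares of all genes. FOB1 rose by 1.17 and TOP1 by 0.74. NHP6B fell by 0.54. Of 11 upstream regulators 3 rose and 1 fell, beside 21.1% and 20.5% of all genes. TOD6 rose by 1.87, the kinase gene SCH9 by 0.42 and the transcription factor gene SFP1 by 0.39, while the repressor gene STB3 fell by 0.51.

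**Figure D3:**
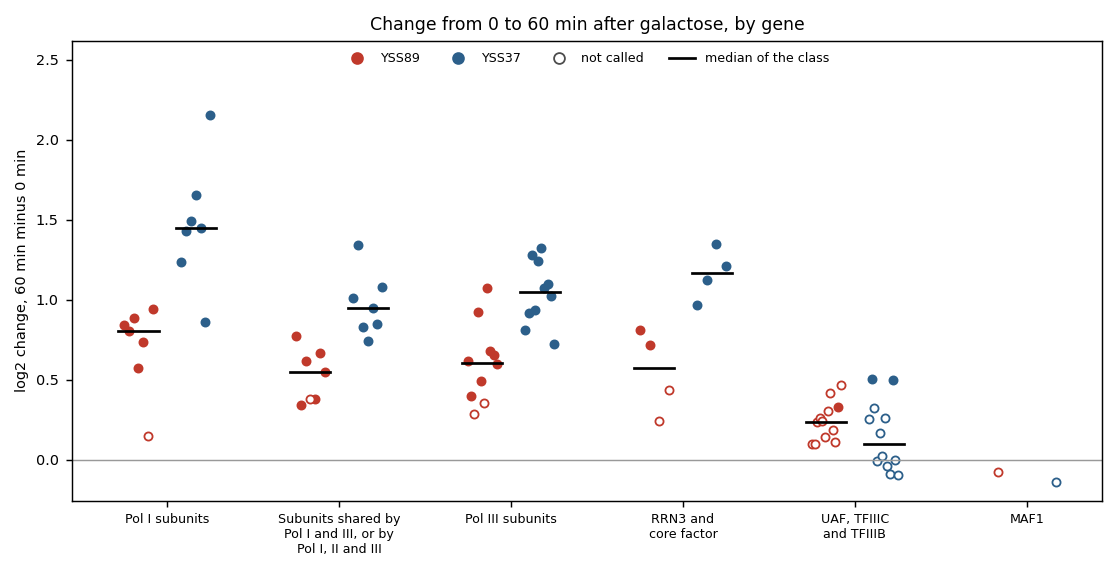
Log2 change of each gene between 60 min and time 0, by class, in YSS89 (red, left of each pair) and YSS37 (blue, right), with open circles for genes not called and a black bar for the class median. Subunit medians were 0.80, 0.55 and 0.61 in YSS89 and 1.45, 0.95 and 1.05 in YSS37, while UAF, TFIIIC and TFIIIB had medians of 0.24 in YSS89 and 0.10 in YSS37.

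Before galactose the subunit genes were already higher in YSS89 than in YSS37. At time 0 28 of the 41 genes were higher and 0 lower (17.8% and 10.2% of all genes), with a median of 0.68 (0.04 over all genes). Of the 24 subunit genes 23 were called, RPC31 being the one that was not (0.43, adjusted p = 0.0539), and their median was 0.92. RRN3 and the core factor were higher in 4 of 4 cases, and UAF, TFIIIC and TFIIIB in 1 of 12, RRN10 (0.49, adjusted p = 0.0331). The deposited RPA12 intensities at time 0 were 92, 134.9 and 130 in YSS89, against 32.9, 13.5 and 23.4 in YSS37, a difference of 2.06 ± 0.22 (adjusted p = 3.63e-06). RRN7 had 23.6, 30.4 and 40.4 in YSS89, against 10.1, 6.2 and 7.2 in YSS37, a difference of 1.53 ± 0.23 (adjusted p = 5.46e-05). Neither gene's arrays overlapped between the strains.

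These differences at time 0 lie between arrays of different rounds. With the round as a block 0 of the 41 were called, with a median of 0.69, and the difference of RPA12 was 1.63 (adjusted p = 0.0983). The share of all genes called under this block is not given here. The strains share round 2 alone, so this block joins them through 1 YSS37 array, replicate c at 60 min. The standard error of RPA12 under it was 0.45, wider than that given above. RPC17 turned direction under that block, to -0.03 at time 0 and -0.07 at 30 min (0.62 and 0.49 as reported). Without the 2 arrays of round 4, which were low in 25S signal, 18 were called and RPA12 differed by 1.72 (adjusted p = 0.0044). No round held both strains at time 0, so no value within a round exists. The mean level of the 24 subunit genes in YSS89 at time 0 was near that of YSS37 at 60 min: the log2 difference had a median of -0.14 (-0.65 to 0.27), and 18 of the 24 differences were under 0.3 in size.

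At later times the strain difference of the subunits was smaller. At 30 min 25 of the 41 genes were higher and 1 lower in YSS89 (23.4% and 20% of all genes), with a median of 0.51, and at 60 min 12 were higher and 0 lower (16.5% and 11.4%), with a median of 0.40. The medians of the 24 subunits were 0.92, 0.66 and 0.44 at 0, 30 and 60 min. The gene that was lower at 30 min was MAF1, with 41.5, 26.4 and 26.5 in YSS89 against 45.3, 43.7 and 44.7 in YSS37 (-0.60 ± 0.19, adjusted p = 0.0156). That call was lost without replicate b or c of YSS89 at 30 min (-0.49 in both cases) and with the round as a block (-0.41). At 60 min the higher genes were 11 subunits, RPA12 (0.85, adjusted p = 0.00755) and RPA49 (0.64) among them, and BDP1, with 51.6, 58.4 and 54.1 in YSS89 against 28.2, 38.6 and 19.7 in YSS37 (0.84, adjusted p = 0.00314). With the round as a block 6 of the 41 were called at 30 min and 5 at 60 min, with medians of 0.54 and 0.33. At 30 min these were RPB5, RPO26, RPC10, RPC53, RRN9 and BRF1, and at 60 min RPO26, RPC53, RPC11, BRF1 and BDP1. RRN9 and BRF1 were not called at these times without the block. Within round 2, which held 1 array of each strain at 60 min, the median at that time was 0.33.

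**Figure D4:**
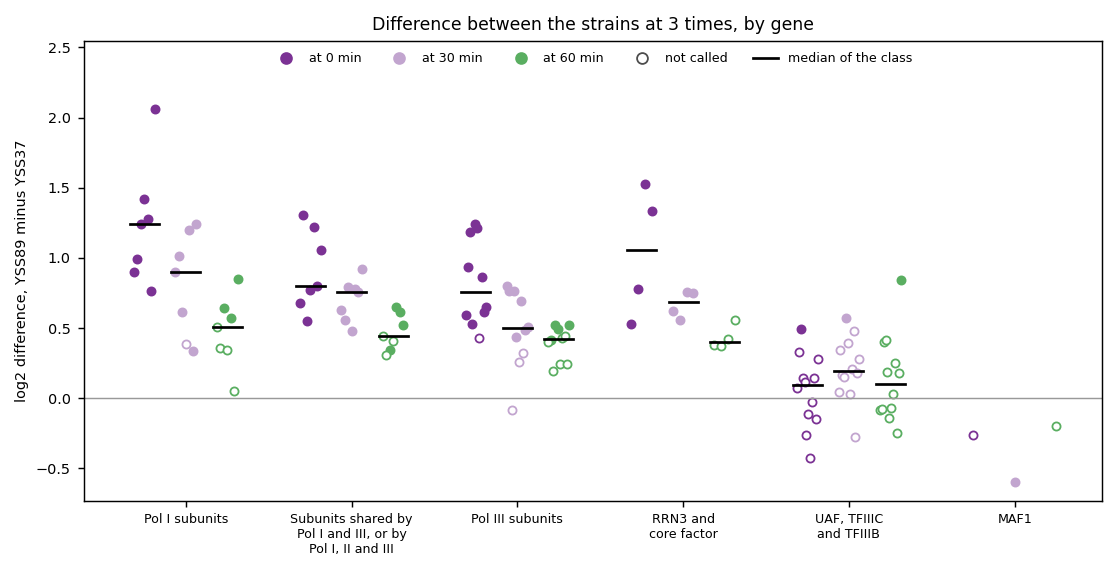
Log2 difference between the strains (YSS89 minus YSS37) of each gene at 0, 30 and 60 min, by class, with open circles for genes not called and a black bar for the class median. The medians of polymerase I subunits were 1.24, 0.90 and 0.51 at the 3 times, and those of UAF, TFIIIC and TFIIIB 0.09, 0.19 and 0.10.

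The change after galactose was compared between the strains as the response of YSS89 minus that of YSS37. At 30 min 1 of the 41 genes had a larger and 5 a smaller change in YSS89 (6.72% and 11% of all genes), about the rate of all genes. At 60 min the counts were 0 and 9 (5.45% and 8.42%). The medians at 30 and 60 min were -0.13 and -0.37 (-0.03 and 0.03 over all genes). The 9 at 60 min were RPA12 (-1.21 ± 0.31, adjusted p = 0.014), RRN7 (-1.10 ± 0.32, adjusted p = 0.027), RPA43, RPC19, RPC82, RPC34, RPC37, RPA14 and RET1. The RRN7 call was lost under 9 other settings (-0.80 to -1.105) and that of RPA12 under 3 (-0.86 to -1.21). RPA43 changed by 0.58 in YSS89 against 1.65 in YSS37, RPC19 by 0.34 against 1.34, and RPC82 by 0.29 against 1.28. TFC1 was the gene with the larger change in YSS89 at 30 min (0.31 in YSS89 against -0.15 in YSS37). In contrast RPC53 and RPC31 changed by 0.93 and 1.07 in YSS89 against 0.93 and 1.08 in YSS37, differences of -0.01 ± 0.18 and -0.00 ± 0.23. RRN3 changed by 0.81 against 0.97.

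The difference of responses and the strain difference at time 0 use the same time 0 arrays, so they are not separate results. The count of 9 at 60 min was 5 without any one of replicates a or c of YSS37 at 60 min, replicate b of YSS37 at time 0, or replicates a or b of YSS89 at 60 min. With the round as a block it was 0, and without the 2 arrays of round 4 it was 2, RPC19 (-0.84) and RPC82 (-1.31). At 30 min 1 gene was called under each of these 2 settings, RPC82 in both (-1.51 with the block and -1.59 without the 2 arrays).

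RPA190 and RPA43 are neighbours on their chromosome in the R64 gene table, the one such pair among the 41. RPA190 rose by 0.97 in YSS89 at 30 min against 0.51 for RPA43, and in YSS37 by 0.97 against 1.55. RPA190 also has 7 probe sets naming it, which did not move alike. In YSS37 at 60 min 6 of the 7 had changes of 0.94 to 1.47 and 1 a change of -0.03. The probe set with -0.03 was dim, with group means of 2.57 to 6.2, so the pseudocount weighs on its change. In YSS89 at 20 min 2 had differences of 0.37 and 0.44 and 5 of -0.25 to -0.44, none of them called. The brightest, used above, gave 0.44. In YSS37 at time 0 its intensities were 96.3, 228.1 and 330.3, a wider spread than at 30 min (399.8, 322.1 and 425.9) or 60 min (450.7, 472.8 and 482.8). Other subunits also rose from replicate a to c at time 0, among them RPA135 (89, 117.3 and 184.6) and RPA43 (30.3, 40.2 and 56.9). RPA12 (32.9, 13.5 and 23.4) and RPC19 (161.4, 131.1 and 152.4) did not. These arrays enter the YSS37 changes, the strain difference at time 0 and the response differences.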

How the data were processed

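Total RNA was labelled by in vitro transcription and read on arrays of 1 colour. The deposited table holds 1 linear intensity per probe set (9335 probe sets), and its 2% trimmed mean is 100.1 on every array, so the authors' values had been scaled. No source used here names the summary algorithm or the genome build. The instrument files were used for hybridization round and chip lot, per the file headers. Values were taken as log2(intensity + 1.4), with 1.4 the 10th percentile of the table, and quantile normalized without 60 control probe sets. Fold changes on this scale understate those of dim genes. Probe sets naming 1 gene in the platform annotation (6504) were kept, with the brightest for each gene (5656 genes). limma 3.58.1 in R 4.3.3 fitted the 8 group means over 24 arrays (16 residual degrees of freedom), with Benjamini-Hochberg adjustment per contrast over all genes and moderated tests of 14 contrasts. The number of arrays limits precision. The fit had no block for replicate letter. Deviations of the 39 same-letter pairs within a strain correlated at a median of 0.04 (-0.24 to 0.33). For the 78 pairs of different letters the median was -0.01, and whether letters mark shared cultures is not known. All members could be named. Values by array, in 1 or both strains, are given for RRN3, MAF1 and the 2 largest called rises and falls in 5 contrasts. Those of RPC82, RPC34, BRF1, BDP1 and RPA190 are given outside this rule. Other lists are represented by up to 4 of their largest called members in each direction. The members and lists were chosen with earlier results of these data known. Alternatives covered normalization, pseudocount, dim genes, probe sets, blocks, prior, single arrays and, added after seeing the data, fits within a round. A planned search for promoter motifs was not run, and no sequence was used here.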

Additional observations from a re-analysis of the deposited data

Results flagged for a closer look

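The change after galactose differed between the strains for 6 of the 41 genes at 30 min and 9 at 60 min. It was tested as an interaction within the limma fit (response of YSS89 minus response of YSS37). At 30 min 1 change was larger and 5 were smaller in YSS89, beside 6.72% and 11% of all genes. The members were thus called at 30 min at about the rate of all genes. At 60 min the counts were 0 and 9, beside 5.45% and 8.42%. At 30 min the differences were -1.03 for RPA43 (adjusted p = 0.00697), -0.75 for RPC19 (adjusted p = 0.00969), -1.27 for RPC82 (adjusted p = 0.00776), -0.81 for RPC37 (adjusted p = 0.00608), -0.96 for RPC34 (adjusted p = 0.0344) and 0.46 for TFC1 (adjusted p = 0.0457). At 60 min they were -1.08 for RPA43 (adjusted p = 0.00708), -0.71 for RPA14 (adjusted p = 0.00419), -1.21 for RPA12 (adjusted p = 0.014), -1.001 for RPC19 (adjusted p = 0.00161), -0.52 for RET1 (adjusted p = 0.0483), -0.99 for RPC82 (adjusted p = 0.0378), -0.75 for RPC37 (adjusted p = 0.0128), -0.97 for RPC34 (adjusted p = 0.0395) and -1.10 for RRN7 (adjusted p = 0.027). RPA43, RPC19, RPC82, RPC37 and RPC34 were thus listed at both times, which share their time 0 arrays. The call of RRN7 at 60 min was lost under 9 other settings. With the hybridization round as a block the differences at 60 min ran from -0.31 (RET1) to -1.29 (RPC82), and none of the 9 was called.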

How the results depend on the processing

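Of 4368 alternative values of the 232 calls of members over the 14 contrasts, 3836 kept their call, 530 lost it in the same direction and 2 turned direction. Both were of RPC17 with the hybridization round as a block, in the strain difference at 0 and 30 min (-0.03 and -0.07). Of 6783 alternative values of results not called, 160 gained a call in the same direction and 0 in the other. Counts of called members that moved by over 1.5 times are as follows, and the cause was not tested. The shares of all genes called under these settings are not given here, so a moved count need not be particular to the members. With the round as a block the strain difference at 0, 30 and 60 min gave 0, 6 and 5 (28, 26 and 12 as reported). That block joins the strains through 1 YSS37 array. Under it YSS89 at 20 min gave 1 (6 as reported), and the response differences at 30 and 60 min gave 1 and 0 (6 and 9). Without the 2 arrays of round 4 (YSS89, time 0) these were 18 for the strain difference at time 0, 2 at 20 min, and 1 and 2 for the response differences. Within round 2 YSS89 gave 0, 7, 14 and 10 at 20, 30, 40 and 60 min (6, 24, 28 and 23), 1 for 30 against 20 min and 1 for the strain difference at 60 min. Within round 3, 30 against 20 min gave 1 (11 as reported). With the fit limited to the arrays being compared, which leaves fewer of them, YSS89 gave 1 at 20 min and 1 for 60 against 30 min (0 as reported), and the response differences 3 and 3. With values as deposited 30 against 20 min gave 6, 60 against 30 min 1 and the response difference at 30 min 10, all 10 smaller in YSS89, and median centring gave 6 for 30 against 20 min. As deposited, YSS89 at 30 min had 16 higher and 1 lower (MAF1), and at 20 min 2 and 2, against 5 and 1 with median centring. The median of all genes for the strain difference at time 0 was 0.21 as deposited and -0.16 after median centring. That of the members was 0.86 and 0.49, with 32 and 24 called higher (28 as reported). RPA190, RPB5, RPB8 and RPO31 lost their calls after median centring. Leaving out 1 array at a time gave 2 to 8, 20 to 23, 23 to 28 and 18 to 25 calls in YSS89 at 20, 30, 40 and 60 min, 3 to 10 for 30 against 20 min and 0 to 1 for 60 against 30 min (1 without replicate c at 60 min). In YSS37 it gave 26 to 29 and 28 to 30 at 30 and 60 min and 0 to 0 for 60 against 30 min. For the strain difference it gave 24 to 28, 20 to 26 and 9 to 11, and for the response differences 4 to 9 and 5 to 13. With the replicate letter as a block within strain the counts were 6, 24, 28 and 23 in YSS89, with 1 for 60 against 30 min, 28 and 30 in YSS37, and 8 and 12 for the response differences. RRN11, UAF30 and TFC8 are dim, which limits their values.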
